A study of Homo sapiens with 8 samples.

Results

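THBS1 encodes thrombospondin-1 and F2RL3 encodes the thrombin receptor PAR4. They are 2 of the 14884 named genes that were measured here. Each was read by 1 probe, 16799315 for THBS1 and 16859390 for F2RL3, among 53617 probes in all, and every probe whose platform gene symbol was THBS1 or F2RL3 was taken. In RefSeq (GRCh38.p14) THBS1 (gene ID 7057) spans chr15:39581079-39599466 and F2RL3 (gene ID 9002) spans chr19:16888999-16892606, but where along each gene its probe lies was not analysed here. The genes were picked with their response to FRAX-597 already known, so their values in that comparison are given as a description and no test of them is made.

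The samples were RNA of THP-1, an established human acute monocytic leukaemia cell line. Cells had received IPA-3 at 6 µg/mL (2 arrays), FRAX-597 at 2 µg/mL (2 arrays) or the same volume of the solvent DMSO (4 arrays), each for 5 h. Both compounds inhibit p21-activated kinases (PAKs). IPA-3 is an allosteric inhibitor of PAK1 activation, and FRAX-597 competes with ATP at group I PAKs. The labels present PAK1 as a possible target for treatment of myeloid leukaemia and myelodysplasia. The line stands for 1 leukaemia. Nothing in the labels ties replicate arrays to separate cultures, and p-values therefore measure how far these arrays spread, for which handling alone may account.

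Thrombospondin-1 is a large secreted glycoprotein that assembles as a trimer in the extracellular matrix and is stored in platelet granules. It binds the cell surface proteins CD36 and CD47, limits blood vessel growth and can release TGF-beta from its latent complex. PAR4 is a G protein-coupled receptor that thrombin switches on by cutting its outer end, and the freed end then acts as a tethered ligand. Both proteins are best known from platelets, and monocytes and macrophages are known to secrete thrombospondin-1.

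The arrays lay on 2 scales. IPA-3 1, IPA-3 2, DMSO 1 and DMSO 2, called the first set below, had medians over all probes between 5.51 and 5.55 on the log2 scale, and FRAX-597 1, FRAX-597 2, DMSO 3 and DMSO 4, the second set, had medians between 6.00 and 6.05. Pearson correlations over all probes were 0.986 to 0.992 in the first set, 0.974 to 0.990 in the second, and 0.942 to 0.956 between them. The labels name no batch, so each compound was compared with DMSO inside its own set. Of 7 measured monocyte markers, 5 (CD68, LYZ, CSF1R, TYROBP and SPI1) lay in the upper quartile of all probes on every array, whereas CD14 and MPO did not on any. Of 5 measured defining platelet markers, 4 (GP9, GP6, PPBP and GATA1) lay under the upper quartile on every array.

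The upstream sequence of each gene is shown because both genes were higher with FRAX-597. The 250 bases before the annotated gene start were taken from RefSeq (GRCh38.p14). The THBS1 stretch is chr15:39580829-39581078 on the plus strand, and that of F2RL3 is chr19:16888749-16888998 on the plus strand. Capitals mark the GC box GGGCGG, the CCAAT box CCAAT, the TEAD motif GGAATG, the ETS core AGGAAG and the E-box CACGTG, read on either strand.
THBS1: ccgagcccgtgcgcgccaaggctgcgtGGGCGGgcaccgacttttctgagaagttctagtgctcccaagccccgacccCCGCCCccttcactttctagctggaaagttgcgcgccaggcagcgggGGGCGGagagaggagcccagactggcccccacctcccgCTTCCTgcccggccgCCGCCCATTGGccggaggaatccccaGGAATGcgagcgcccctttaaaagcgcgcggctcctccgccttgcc
F2RL3: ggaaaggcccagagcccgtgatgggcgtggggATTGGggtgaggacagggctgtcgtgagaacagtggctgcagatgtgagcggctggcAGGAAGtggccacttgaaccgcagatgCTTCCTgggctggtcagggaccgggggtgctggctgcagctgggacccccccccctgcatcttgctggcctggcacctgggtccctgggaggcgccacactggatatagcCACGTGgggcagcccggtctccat

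The 2 stretches differed in their motif content. THBS1 held 4 GC boxes, which 42.3% of 27305 promoters of the same length held at least once, and F2RL3 held 0. THBS1 also held 1 TEAD motif at position -46 from the gene start (11.9% of promoters), and in THBS1 a GC box and the CCAAT box, at position -66, adjoin without overlap. F2RL3 held 1 E-box at position -24, where 6.49% of promoters held one, and THBS1 held 0. Motifs found in both were the CCAAT box (33.0% of promoters) and the ETS core (28.7%), the ETS core at 1 position in THBS1 and at 2 in F2RL3. The AP-1 site TGANTCA, the CRE TGACGTCA, the ATF4-C/EBP core TGATGNAA and the GATA motif AGATAA were in neither window. Nor were the TATA box TATAAA and the CArG box, which was searched as a letter pattern. A match is a string of letters and not a shown binding site. The G and C content was 69.6% for THBS1 and 66.8% for F2RL3, above the median of 58.0% over all promoters.

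THBS1 was far higher with FRAX-597 than in its solvent arrays. Its log2 expression value was 10.86 in FRAX-597 1 and 11.49 in FRAX-597 2, against 6.47 in DMSO 3 and 6.09 in DMSO 4. Both FRAX-597 arrays were above both DMSO arrays by a wide margin. The means were 11.18 ± 0.45 with FRAX-597 and 6.28 ± 0.26 in DMSO 3 and 4 (SD, n = 2 each), a log2 change of 4.89 (SE 0.22) and a 29.7-fold difference. Taken array by array, the smallest of the 4 differences was 4.39 and the largest 5.40, which is 21.0-fold to 42.2-fold. This was the largest rise among the 14884 named genes and among all 53617 probes. STAT4, which carries the interleukin-12 signal to the nucleus, came next among named genes with a log2 change of 3.42 (SE 0.35), and CRLF2, a chain of the TSLP receptor, followed it with 2.83 (SE 0.26).

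F2RL3 was higher with FRAX-597 by a smaller amount. Its log2 value was 8.32 in FRAX-597 1 and 8.14 in FRAX-597 2, against 5.80 in DMSO 3 and 6.56 in DMSO 4. The groups did not overlap, but the DMSO arrays stood further apart from each other than the FRAX-597 arrays did. The means were 8.23 ± 0.13 with FRAX-597 and 6.18 ± 0.54 in DMSO 3 and 4 (SD, n = 2 each), a log2 change of 2.05 (SE 0.23) and a 4.15-fold difference. Array by array, the differences ran from 1.58 to 2.52, which is 2.99-fold to 5.75-fold. F2RL3 ranked 9th of the named genes and 15th of all probes by its rise. The genes next to it in that order were IL7R, the interleukin-7 receptor alpha chain (2.10), and TBX15, a T-box factor (2.08), above it, and TRIB3, a pseudokinase of the stress response (2.05), and VEGFA, the angiogenic growth factor (2.05), below it. The standard errors of these changes were 0.20 to 0.30, so this order is within the error of the changes. All these errors use 1 spread per gene, shared with the first set. With only the 4 arrays of the comparison the SE was 0.27 for THBS1 and 0.28 for F2RL3.

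**Figure D1:**
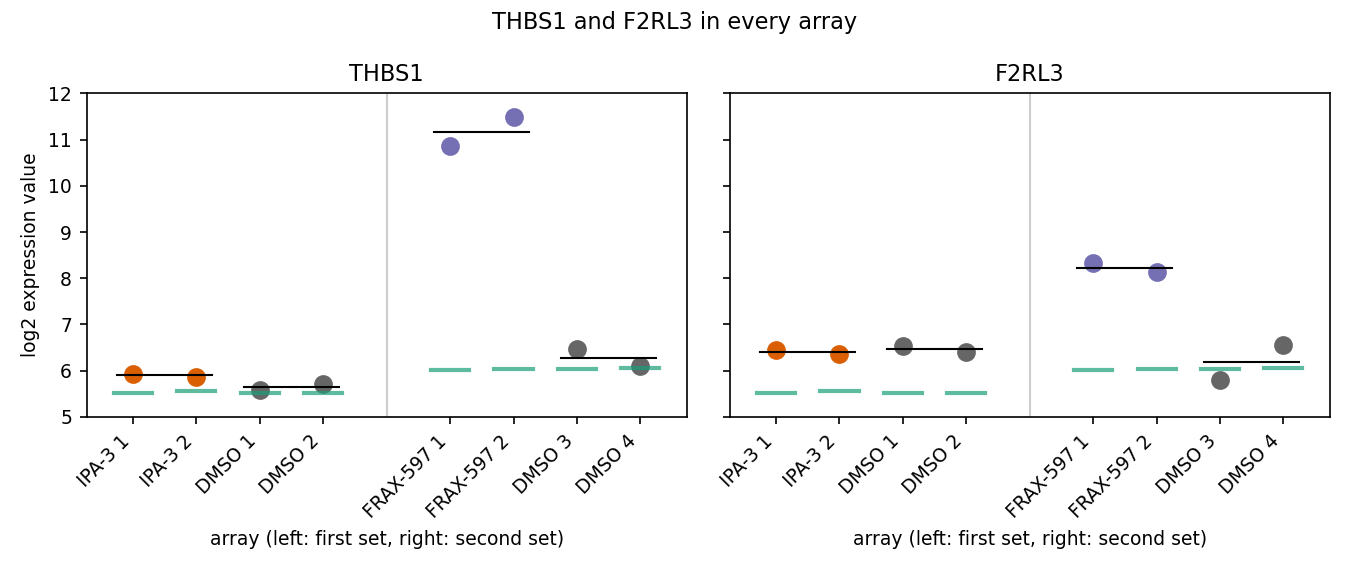
Log2 expression value of THBS1 (left panel) and F2RL3 (right panel) in every array. Points are arrays (orange IPA-3, purple FRAX-597, grey DMSO), black lines are the means of each pair and green bars are the median over all probes of that array. THBS1 stands at 10.86 and 11.49 and F2RL3 at 8.32 and 8.14 with FRAX-597, and all other readings of the 2 genes lie at 6.56 or lower.

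With IPA-3 neither gene passed the test. THBS1 had log2 values of 5.93 in IPA-3 1 and 5.87 in IPA-3 2, against 5.58 in DMSO 1 and 5.71 in DMSO 2. Both IPA-3 arrays lay above both DMSO arrays, as they did for 19.3% of all named genes. The log2 change was 0.25 (SE 0.22; limma adjusted p = 0.857), with a 95% interval from -0.25 to 0.76, or 0.839-fold to 1.69-fold. F2RL3 had 6.44 in IPA-3 1 and 6.35 in IPA-3 2, against 6.54 in DMSO 1 and 6.41 in DMSO 2, and here the groups overlapped. Its log2 change was -0.08 (SE 0.23; limma adjusted p = 0.983), with a 95% interval from -0.61 to 0.46, or 0.655-fold to 1.37-fold. These errors and intervals use 1 spread per gene, shared with the FRAX-597 arrays and DMSO 3 and 4. For THBS1 the SD was 0.45 with FRAX-597 and 0.26 in DMSO 3 and 4. It was 0.04 with IPA-3 and 0.10 in DMSO 1 and 2. With only the 4 arrays of the comparison, THBS1 had an SE of 0.095 (limma unadjusted p = 0.0393, adjusted p = 0.312). F2RL3 then had an SE of 0.097 (limma adjusted p = 0.751). The intervals above leave room for small changes in either direction. The compounds were given at different doses and on different array sets, so their changes stand side by side and were not compared.

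Placed within each array, both genes were mid-range in solvent. THBS1 lay at percentile 98.0 and 98.9 of all probes with FRAX-597, against 58.5 in DMSO 3 and 51.0 in DMSO 4. With IPA-3 it lay at 57.5 and 56.0, against 51.3 in DMSO 1 and 53.8 in DMSO 2. In these 6 arrays without FRAX-597 the reading was thus close to that of the median probe, and the table carries no detection call, so a level above background is not shown there. F2RL3 lay at percentile 84.9 and 82.8 with FRAX-597, against 45.7 in DMSO 3 and 60.1 in DMSO 4. With IPA-3 its percentiles were 66.3 and 64.9, against 68.1 in DMSO 1 and 65.9 in DMSO 2. Its solvent readings, of which DMSO 3 lay under the median probe, are likewise not shown to be above background, and the folds of both genes are uncertain to that extent. A percentile also carries the brightness of the probe itself and is used only to place 1 gene across arrays.

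On average, the log2 values of the solvent arrays differed between the sets in opposite directions for the 2 genes, before any allowance for scale. The mean of DMSO 3 and 4 minus that of DMSO 1 and 2 was 0.64 for THBS1 and -0.30 for F2RL3 on the log2 scale, where the median over all named genes was 0.48. The mean of F2RL3 was thus lower in the second set although most genes read higher there. In log2 values this rested on DMSO 3 (5.80), as DMSO 4 (6.56) lay above DMSO 1 (6.54) and DMSO 2 (6.41). By percentile of all probes F2RL3 was lower in both DMSO 3 (45.7) and DMSO 4 (60.1) than in DMSO 1 (68.1) and DMSO 2 (65.9). The percentiles of THBS1 overlapped between the sets, at 58.5 in DMSO 3 and 51.0 in DMSO 4, against 51.3 in DMSO 1 and 53.8 in DMSO 2. The gap between DMSO 3 and DMSO 4 was 0.76 for F2RL3, larger than that of 96.3% of named genes, and 0.37 for THBS1, larger than that of 81.4%. The gap between FRAX-597 1 and FRAX-597 2 was 0.63 for THBS1 (larger than in 91.4% of genes) and 0.18 for F2RL3 (48.3%).

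In the second set, both genes ran against a deviation of the arrays that many genes shared. Across named genes, which are not independent replicates, the difference between DMSO 3 and DMSO 4 tracked that between FRAX-597 1 and FRAX-597 2 (r = 0.65). The signs of the differences were opposite in 32.7% of named genes, and in 13.1% of the 2765 genes whose DMSO gap was at least that of THBS1. THBS1 had a difference of 0.37 between the DMSO arrays and of -0.63 between the FRAX-597 arrays. F2RL3 had -0.76 and 0.18 in the same order. Both genes had opposite signs in the 2 pairs, and they differed from each other in which array was high.

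The other thrombospondins were not called with either compound. In FRAX-597 cells 18 named genes (0.121% of those tested) were called higher and 5 (0.0336%) lower at a limma adjusted p under 0.05. Leaving out 1 array moved the 23 calls to between 2 (any array of the first set left out) and 227 (without FRAX-597 2). Without DMSO 3 there were 5 calls and without DMSO 4 there were 7. THBS1 and F2RL3 were chosen from this comparison, and nothing is read from their part in it. Of the 4 family members beside THBS1, 0 were called, and 0 had an unadjusted p under 0.05. Over all named genes that unadjusted threshold was passed by 4.04% higher and 3.61% lower with FRAX-597, and by 3.1% higher and 4.11% lower with IPA-3. THBS2, a close relative that also inhibits vessel growth, had log2 values of 5.40 and 5.34 with FRAX-597, against 5.77 in DMSO 3 and 5.44 in DMSO 4 (log2 change -0.24, SE 0.17; limma adjusted p = 0.86). THBS3 had a change of 0.15 (SE 0.15), THBS4 of -0.13 (SE 0.18) and COMP, the cartilage thrombospondin, of -0.13 (SE 0.11), with adjusted p between 0.891 and 0.970. With IPA-3, where 4 genes (0.0269%) were called higher and 1 (0.00672%) lower, 0 of the 5 family members were called. Without 1 of the arrays of the first set there were 0 calls by limma for IPA-3 (491 to 1146 genes by unadjusted p under 0.05). Leaving out DMSO 3 or DMSO 4 gave 2, and leaving out FRAX-597 1 or FRAX-597 2 gave 24. THBS4, found mainly in muscle, tendon and nerve, was the 1 member past an unadjusted p of 0.05, with 5.30 and 5.22 with IPA-3, against 5.75 in DMSO 1 and 6.25 in DMSO 2 (log2 change -0.74, SE 0.18; limma adjusted p = 0.518).

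Of the 4 protease-activated receptors 3 were measured, and the 2 beside F2RL3 were not called either. F2R, which encodes PAR1, the other main thrombin receptor of human platelets, had log2 values of 6.49 and 6.77 with FRAX-597, against 6.68 in DMSO 3 and 6.72 in DMSO 4. Its readings overlapped, and the log2 change was -0.07 (SE 0.15; limma adjusted p = 0.994). F2RL2, which encodes PAR3, a thrombin-cleaved receptor that acts as a cofactor of PAR4 in the mouse, had a change of 0.04 (SE 0.13; adjusted p = 0.998). With IPA-3 the changes were -0.15 (SE 0.15; adjusted p = 0.876) for F2R and 0.25 (SE 0.13; adjusted p = 0.751) for F2RL2. F2RL1, which encodes PAR2, was not analysed here.

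**Figure D2:**
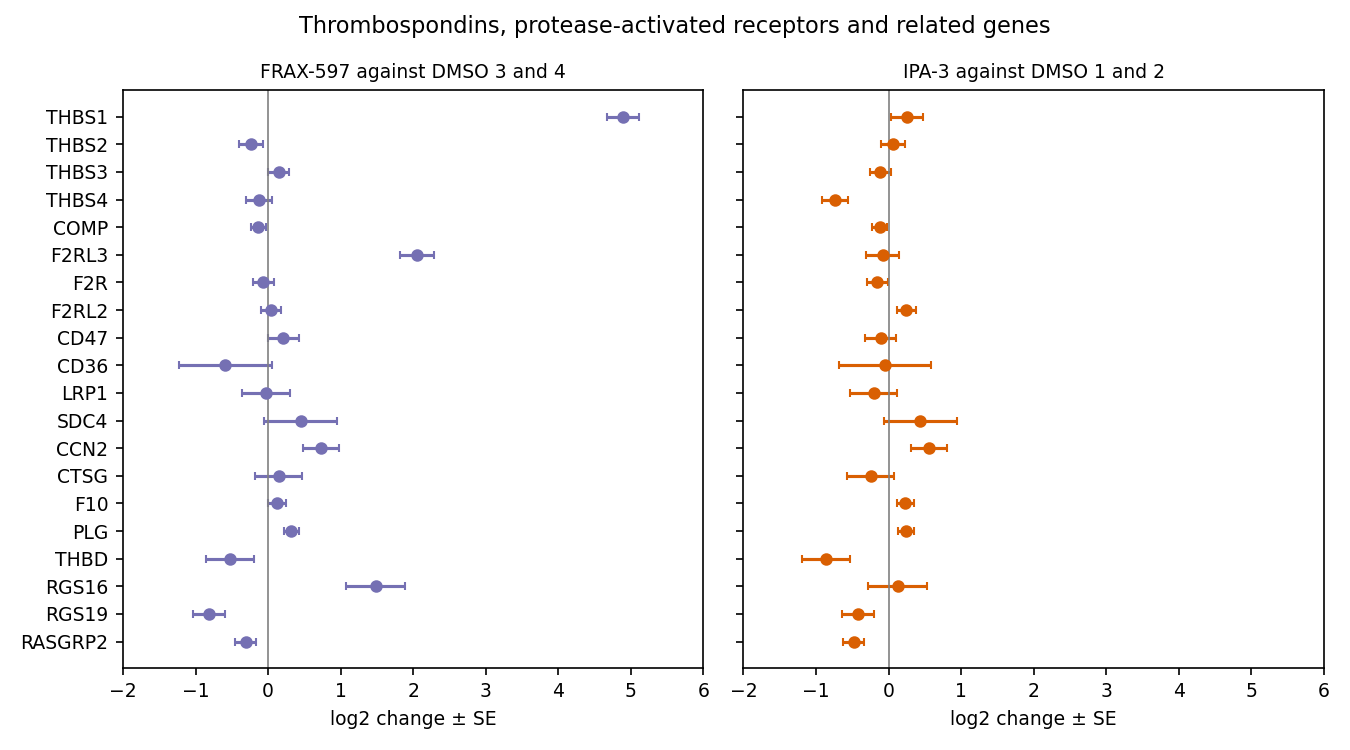
Log2 change with its standard error for the thrombospondins, the protease-activated receptors and related genes, with FRAX-597 against DMSO 3 and 4 on the left and IPA-3 against DMSO 1 and 2 on the right. With FRAX-597, THBS1 lies at 4.89 and F2RL3 at 2.05, and both were picked with this response known. With IPA-3 they lie at 0.25 and -0.08.

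Receptors and binding partners of thrombospondin-1 showed no called change. Of 21 listed genes 12 were measured, 0 were called by limma for either compound (0 by unadjusted p with FRAX-597, and 1 higher with IPA-3), and the median log2 change was -0.03 with FRAX-597 and 0.01 with IPA-3, where all named genes had medians of -0.02 and -0.02. With FRAX-597, 0 lay with both arrays above both DMSO arrays, which 13% of all named genes did, and 1 lay below (17.8% of all genes). CD47, the widely expressed receptor, had log2 values of 10.55 and 9.99 with FRAX-597, against 10.27 in DMSO 3 and 9.84 in DMSO 4 (change 0.21, SE 0.21). CD36, the scavenger receptor through which thrombospondin-1 restrains endothelial cells, had 7.10 and 5.57 with FRAX-597, against 7.85 in DMSO 3 and 5.98 in DMSO 4 (change -0.59, SE 0.63). One array of each pair was high for CD36, which gives its large error. With IPA-3, 3 members lay above and 3 below without overlap, against 19.3% and 28.3% of all genes. SIRPA, the CD47-binding inhibitory receptor of myeloid cells, lay above with a change of 0.51 (SE 0.16; limma adjusted p = 0.57).

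The measured TGF-beta and matrix genes had no calls. Of 28 listed TGF-beta genes 16 were measured, and of 31 listed matrix genes 17. No TGF-beta ligand was among the 16, and neither were TGFBR1 and TGFBR2. Of 16 measured TGF-beta genes 0 were called by limma (by unadjusted p 2 higher and 1 lower with FRAX-597, 1 higher with IPA-3), 4 lay above and 1 below without overlap with FRAX-597 (13% and 17.8% of all named genes), and the median change was 0.06. With IPA-3, 3 lay above and 4 below (19.3% and 28.3% of all genes), with a median of 0.00. For LTBP1, which holds latent TGF-beta in the matrix, the FRAX-597 change was 0.67 (SE 0.26; limma adjusted p = 0.611). For SKIL, a target and repressor of SMAD signalling, it was 0.45 with FRAX-597 (SE 0.13; adjusted p = 0.407). SMAD7, the inhibitory SMAD that TGF-beta induces, had a change of -0.24 with FRAX-597 (SE 0.10; adjusted p = 0.638). Of 17 matrix and matricellular genes 0 were called by limma (2 higher by unadjusted p with FRAX-597, 0 with IPA-3) and 4 lay above and 1 below without overlap with FRAX-597 (13% and 17.8% of all genes), with a median of 0.00. With IPA-3, 3 lay above and 2 below (19.3% and 28.3%), with a median of 0.03. CCN2, connective tissue growth factor, had 7.56 and 6.72 with FRAX-597, against 6.50 in DMSO 3 and 6.34 in DMSO 4 (change 0.72, SE 0.25; adjusted p = 0.513), and a change of 0.55 (SE 0.25; adjusted p = 0.697) with IPA-3. Matrix proteases and their inhibitors had 0 limma calls among 14 measured of 28 listed (by unadjusted p 0 with FRAX-597, 1 higher with IPA-3), with a median of 0.03 with FRAX-597 and 0.04 with IPA-3.

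Among 21 measured angiogenesis genes (26 listed), VEGFA was the 1 called higher with FRAX-597, where 0.121% of all named genes were. The list was written with earlier results of these data known, so its share of calls is a description and nothing is read from it. It had log2 values of 9.65 and 10.06 with FRAX-597, against 7.45 in DMSO 3 and 8.16 in DMSO 4, a change of 2.05 (SE 0.24; limma adjusted p = 0.032). VEGFA drives vessel growth and thrombospondin-1 restrains it, and both genes read higher in both FRAX-597 arrays. VEGFA passed the test under 8 of 17 alternatives and not under 9, with adjusted p between 0.000928 and 0.790. Without DMSO 3 its change was 1.69 (adjusted p = 0.121), and it also missed the threshold without FRAX-597 1 (adjusted p = 0.0548) and without any 1 array of the first set (0.134 to 0.163). The median of the list was 0.05 with FRAX-597. With IPA-3 the list had 0 limma calls (3 higher by unadjusted p), with 11 of 21 above DMSO without overlap and 4 below (19.3% and 28.3% of all genes), and a median of 0.16. VEGFC, which drives lymphatic vessel growth, had 7.35 and 7.40 with IPA-3, against 6.16 in DMSO 1 and 6.04 in DMSO 2 (change 1.27, SE 0.19; adjusted p = 0.182), and a change of -0.40 (SE 0.19; adjusted p = 0.716) with FRAX-597.

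The measured enzymes that cut the receptors, and the measured molecules that carry the PAR4 signal, were not called with either compound. Of 19 listed activating proteases and cofactors 12 were measured. Of these 12, 0 were called by limma (by unadjusted p 1 higher with FRAX-597, 0 with IPA-3), and their median change was 0.04 with FRAX-597. CTSG, the neutrophil and monocyte protease cathepsin G that can activate PAR4, had 10.05 and 10.84 with FRAX-597, against 9.86 in DMSO 3 and 10.74 in DMSO 4 (change 0.15, SE 0.32). Of 38 listed genes of G protein signalling 11 were measured, with no arrestin among them, so most of that list was not read. Of these 11, 0 were called by limma (by unadjusted p 1 higher and 1 lower with FRAX-597, 1 lower with IPA-3), 2 lay above and 3 below without overlap with FRAX-597 (13% and 17.8% of all genes), and the median was -0.09. With IPA-3, 0 lay above and 6 below (19.3% and 28.3% of all genes), and the median was -0.12. RGS16 and RGS19, which both speed the switching off of G proteins, had opposite changes with FRAX-597. RGS16 had 10.26 and 9.12 with FRAX-597, against 7.74 in DMSO 3 and 8.67 in DMSO 4 (change 1.49, SE 0.41; adjusted p = 0.359). RGS19 had 8.71 and 9.44 with FRAX-597, against 9.79 in DMSO 3 and 9.99 in DMSO 4 (change -0.81, SE 0.22; adjusted p = 0.354).

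The measured coagulation and platelet genes had no calls. Of 20 measured coagulation and fibrinolysis genes (38 listed) 0 were called by limma (by unadjusted p 1 higher and 1 lower with FRAX-597, 1 lower with IPA-3) and the medians were -0.01 with FRAX-597 and 0.03 with IPA-3. Without overlap, 3 lay above and 3 below with FRAX-597 (13% and 17.8% of all genes), and 8 above and 5 below with IPA-3 (19.3% and 28.3%). The list shares genes with that of the activating proteases. Among them is PLG, the gene higher by unadjusted p with FRAX-597 in both. THBD, which encodes thrombomodulin, the thrombin-binding anticoagulant of monocytes and endothelium, showed a log2 change of -0.53 (SE 0.33; limma adjusted p = 0.832) with FRAX-597. With IPA-3 it had 9.42 and 9.34, against 10.19 in DMSO 1 and 10.29 in DMSO 2 (change -0.86, SE 0.33; adjusted p = 0.654). Of 17 measured platelet and megakaryocyte genes (30 listed) 0 were called by limma (by unadjusted p 0 with FRAX-597, 3 higher with IPA-3), and the median change was -0.01 with both compounds. The 21 measured monocyte markers (37 listed) also had 0 calls (1 lower by unadjusted p with each compound), with a median of -0.05 with FRAX-597 and -0.15 with IPA-3. Of these, 0 lay above and 2 below DMSO without overlap with FRAX-597 (13% and 17.8% of all genes), and 2 above and 12 below with IPA-3 (19.3% and 28.3%). Markers of T cells (9 measured of 12 listed), B cells (6 of 10), erythroid (3 of 12), epithelial (9 of 11) and endothelial cells and fibroblasts (8 of 15) had 0 calls (2 epithelial genes higher by unadjusted p with FRAX-597, 1 B cell gene higher with IPA-3) and medians between -0.05 and 0.04 with FRAX-597, and between -0.06 and 0.07 with IPA-3. The mean log2 value of the 5 defining platelet markers was 6.01 and 6.12 with FRAX-597, against 6.12 in DMSO 3 and 6.14 in DMSO 4. PF4 and PPBP, the platelet chemokines, had changes of -0.17 (SE 0.14) and -0.06 (SE 0.11), with adjusted p of 0.896 and 0.992. The part of platelet-like cells in the readings of THBS1 and F2RL3 was not tested. In whole-culture RNA, more cells that express a gene and more RNA per cell cannot be told apart.

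Regulators known from other systems to act on THBS1, namely transcription factors, their cofactors and the microRNA host gene MIR17HG, showed mixed values and 0 limma calls among 21 measured of 29 listed (by unadjusted p 2 higher and 5 lower with FRAX-597, 2 higher and 3 lower with IPA-3). With FRAX-597, 3 lay above and 7 below without overlap, against 13% and 17.8% of all named genes, and the median change was -0.05. With IPA-3, 5 lay above and 10 below, against 19.3% and 28.3%, and the median was -0.11. MYC, which represses THBS1 in several cell types, had 7.43 and 7.85 with FRAX-597, against 8.51 in DMSO 3 and 8.51 in DMSO 4 (change -0.87, SE 0.15; limma adjusted p = 0.132). EGR1, an early growth response factor, had a change of -0.70 (SE 0.16; adjusted p = 0.241) with FRAX-597 and -0.96 (SE 0.16; adjusted p = 0.256) with IPA-3. FOSL2, a subunit of AP-1, had 9.79 and 9.59 with FRAX-597, against 8.70 in DMSO 3 and 8.52 in DMSO 4 (change 1.08, SE 0.15; adjusted p = 0.0573). With IPA-3 FOSL2 had a change of -0.39 (SE 0.15), FOS of -0.81 (SE 0.23) and FOSL1 of 0.77 (SE 0.13), with adjusted p of 0.648, 0.530 and 0.257. The part of any of these factors in the rise of THBS1 was not tested.

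**Figure D3:**
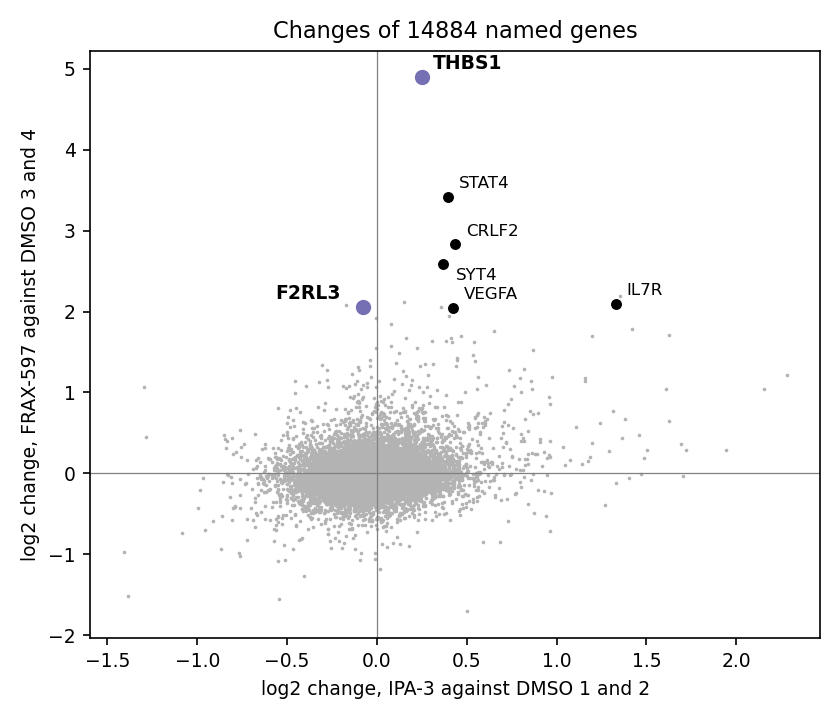
Log2 change with IPA-3 against DMSO 1 and 2 (horizontal) and with FRAX-597 against DMSO 3 and 4 (vertical) for 14884 named genes, 1 point each. THBS1 (0.25 and 4.89) and F2RL3 (-0.08 and 2.05) lie near 0 on the horizontal axis, and IL7R is labelled as a gene of similar FRAX-597 change that lies at 1.33 for IPA-3.

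The genes most like each member were found by Pearson correlation over 8 values, each array minus the mean of its own DMSO pair. The search took 95 of the 104 genes whose log2 change with FRAX-597 was at least 1 in either direction. Small RNAs, antisense RNAs and unnamed transcripts among the 104 were left out. All these genes share the same 8 arrays, so the correlations are a description. The genes were also admitted by their FRAX-597 change, so high correlations follow in part from that choice. Of these genes, 16 had r over 0.95 with THBS1 and 8 with F2RL3. For THBS1 the highest were SNAI1, a repressor of epithelial genes (r = 0.989), SYT4, a synaptotagmin of membrane trafficking (0.985), CRLF2 (0.984), STAT4 (0.983), TBX15 (0.979), JOSD1, a deubiquitinase (0.973), AVPI1 (0.972) and SIPA1L1, a regulator of the small GTPase Rap (0.972). These genes had FRAX-597 changes from 1.32 for SNAI1 to 3.42 for STAT4, all below that of THBS1.

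For F2RL3 the highest were AVPI1 (r = 0.976), MAB21L3 (0.969), SYT4 (0.964), SNAI1 (0.959), VEGFA (0.956), THBS1 itself (0.956), CST7, the protease inhibitor cystatin F (0.952), and CFLAR, an inhibitor of caspase-8 (0.951). By Euclidean distance over the same 8 values AVPI1 was also the nearest to F2RL3 (0.595), with log2 values of 9.70 and 9.25 with FRAX-597, against 7.50 in DMSO 3 and 7.62 in DMSO 4 (change 1.92, SE 0.16) and a change of -0.01 (SE 0.16) with IPA-3. SYT4, SNAI1 and AVPI1 were in both lists. F2RL3 ranked 13th in likeness to THBS1, and THBS1 6th in likeness to F2RL3. The lists rest on the pair of FRAX-597 arrays. Without FRAX-597 1, 5 of the 8 genes for THBS1 and 2 of the 8 for F2RL3 stayed in the list, and without FRAX-597 2, 1 and 3 stayed.

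**Figure D4:**
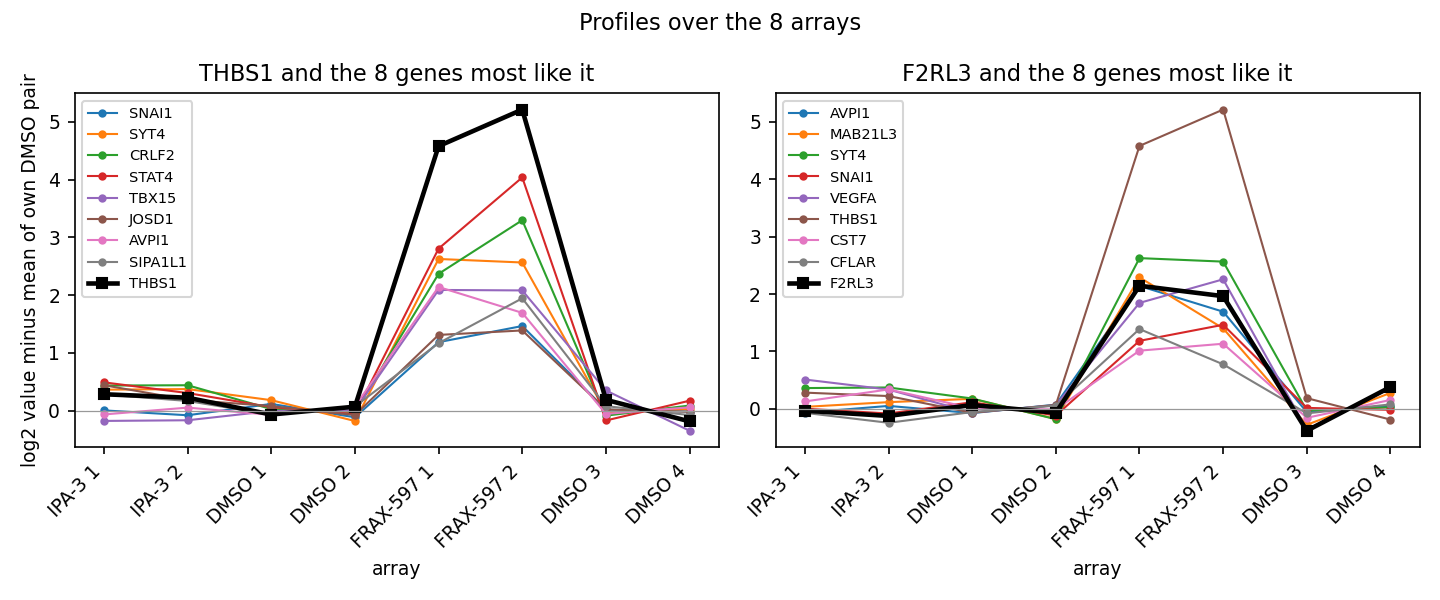
Log2 value of each array minus the mean of its own DMSO pair, for THBS1 with the 8 genes most like it (left) and for F2RL3 with the 8 most like it (right), the member in black. All lines are highest at the FRAX-597 arrays, where THBS1 (mean 4.89) tops the others, and average between -0.17 and 0.44 at the IPA-3 arrays.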

How the data were processed

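Total RNA of THP-1 cells was labelled with biotin and hybridised to 1-colour Affymetrix arrays, per the labels' protocols. The values analysed are the authors' deposited log2 expression values for 53617 probes in 8 arrays. Transcriptome Analysis Console and Affymetrix Expression Console are the tools listed, per the submitters' processing notes. The summarisation, normalization and genome build behind the values are not given in the sources used here. Arrays have no read depth, so their number limits the precision.

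Probes were named through the platform annotation (16098 with 1 gene, 0 with several, 37519 unnamed here). Symbols were updated through gene IDs to RefSeq names, and all 16098 matched. For 779 genes with several probes, the probe with the highest mean was kept, leaving 14884. limma (version 3.58.1, R 4.3.3) was fitted to 4 groups (IPA-3, DMSO 1 and 2, FRAX-597, DMSO 3 and 4) over all 8 arrays, which share 1 spread per gene, with Benjamini-Hochberg adjustment over 14884 genes. The procedure was tested on simulated data.

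The members, the 18 gene lists and the rule for named genes were chosen with earlier results of these data known. The rule took the members, both families, up to 4 and 3 members per other list with the largest FRAX-597 and IPA-3 changes, the genes next to the members in change, markers, and the 8 genes most like each member, without small RNAs and unnamed transcripts. The text names some of these. Alternatives were other controls, normalizations, filters, variance models, probe choice, a block and leaving out each array. The labels give the compound arrays no replicate numbers, so no pairing was planned from them.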

Additional observations from a re-analysis of the deposited data

Results flagged for a closer look

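CST7, which was named for its likeness to F2RL3, had 1 of its 4 DMSO arrays far from the others. Its log2 value was 7.71 in DMSO 4, against 7.40 in DMSO 3, 7.39 in DMSO 1 and 7.37 in DMSO 2. The gap of DMSO 4 to its nearest neighbour was 0.909 of the whole range, above Dixon's critical value for 4 samples. Chance alone puts about 1 group in 20 past this value, and 20 genes were looked at. THBS1 had a ratio of 0.420 and F2RL3 of 0.801 over the same 4 arrays, both under the critical value, and the DMSO arrays of the 2 sets lie on different scales.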

How the results depend on the processing

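For THBS1 the log2 change with FRAX-597 ran from 4.58 to 5.21 and for F2RL3 from 1.67 to 2.43 over 17 alternatives, always higher; F2RL3 lay lowest without DMSO 3. With IPA-3 neither gene passed the limma test under any of the 17, with changes from -0.06 to 0.32 for THBS1 and from -0.14 to 0.30 for F2RL3. With all 4 DMSO arrays as the control the sign turned, to -0.064 for THBS1 and 0.071 for F2RL3. The median over all named genes was then -0.257, as the DMSO arrays lie on 2 scales. With quantile normalization added, an alternative chosen after seeing the data, THBS1 had 0.165 and F2RL3 had 0.30. Genes called for IPA-3 (5) became 0 with all 4 DMSO arrays (843 at an unadjusted p under 0.05, limma), 96 with only the 4 arrays of the comparison, 2 with quantile normalization, 8 with trended robust variances, 0 with every probe tested (3416 unadjusted), 2 among genes above the median level, 0 with quantile normalization and all 4 DMSO arrays (980 unadjusted), and 0 to 24 with 1 array left out. Genes called for FRAX-597 (23) became 5 with all 4 DMSO arrays, 0 with only the 4 arrays (606 unadjusted, limma), 6 with every probe tested, and 2 to 227 with 1 array left out. A replicate block joining DMSO 3 with FRAX-597 1 and DMSO 4 with FRAX-597 2, a pairing taken from these data and not from the labels, gave 72 calls for IPA-3 and 202 for FRAX-597. Across genes the paired differences correlated at 0.65 in the second set and -0.06 in the first. The cause of these shifts was not tested. Of the 8 most alike genes, Euclidean distance kept 4 for THBS1 and 4 for F2RL3, and leaving out 1 of the 4 compound arrays kept 1 to 7 and 2 to 8 (DMSO arrays were not left out here). Among named genes in place of all probes, THBS1 had mean percentiles of 39.0 with IPA-3, against 34.4 in DMSO 1 and 2, and of 36.3 in DMSO 3 and 4. F2RL3 had 49.2 with IPA-3, against 50.6 in DMSO 1 and 2, and 74.6 with FRAX-597, against 34.5 in DMSO 3 and 4. The median of the thrombospondin-1 receptors with IPA-3 was -0.0084 after quantile normalization. With 2 arrays a group and no detection calls, small changes and levels near background cannot be resolved.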
